A study of Mus musculus with 12 samples.

Results

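The heme synthesis enzymes are described here across erythroid maturation by the transcripts of 8 genes, Alas1, Alas2, Alad, Uros, Urod, Cpox, Ppox and Fech. They were taken by symbol from a table of 29838 genes, of which 12994 were expressed highly enough to be tested, all 8 among them. Transcripts were measured by RNA sequencing of erythroblasts sorted from the bone marrow (BM) of male C57BL/6 mice aged 8 weeks, all labelled WT. The 4 stages were proerythroblasts (Pro), gated as CD44-high and Ter119-low, and basophilic (Baso), polychromatic (Poly) and orthochromatic (Ortho) erythroblasts, which were told apart within the Ter119+ cells by CD44 level and size. Per stage there were 3 libraries, and the labels name no treatment or mutant allele. Of the Ortho libraries, replicates 2 and 3 carried only a general erythroblast label for the cell type and were placed by their titles. No source used here says whether the replicates came from separate mice, so the p-values measure only the spread between these libraries.

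Heme is made by a chain of enzymes that starts and ends in the mitochondrion. Aminolevulinate synthase joins glycine and succinyl-CoA, the cytosolic enzymes then build the tetrapyrrole ring, and the last enzymes, back in the mitochondrion, oxidize the ring and insert iron. Erythroblasts need heme for hemoglobin and have a synthase of their own for the first step, ALAS2, while ALAS1 is found in all tissues. The ALAS2 mRNA carries an iron-responsive element in its 5′ untranslated region (UTR). The 8 genes cover 7 of the 8 steps, with both synthases at the first, and the gene of the remaining step was not analysed here.

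Of sequence elements in the 5′ UTR, only the iron-responsive element, known in Alas2 beforehand, was searched for. A stem-loop pattern of the iron-responsive element was searched in the 5′ UTRs of GENCODE M21 transcripts (mm10): a bulged C, 5 bases, the loop CAGTGN, and 5 bases able to pair with the first 5. It was found in 31 of 21165 genes (0.146%) and in 1 of the 8, Alas2, whereas the loop letters alone were found in 33.7% of genes and in 5 of the 8. This search of the whole UTR was chosen after the data were seen, since the planned search of the 50 bases after the start found no site. The Alas2 site lies at chrX:150547459-150547485 on the plus strand, bases 85 to 111 of a 126-base 5′ UTR, and is shown with the loop in capitals.
Alas2 5′ UTR site: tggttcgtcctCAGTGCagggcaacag

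Promoter sequence is shown for Alas2, which rose most, and for Cpox and Alad, which fell most. RefSeq windows of 300 bases (GRCm38.p6; 250 before and 50 after the start) were given for 7 of the 8 genes, 10 windows in all. Only the bases upstream of the start and of any annotated exon are printed, and for Alas1 such bases were too few to print. On both strands, AGATAA or TGATAA, the letters of a GATA site, were found in 3 of the 10 windows against 18.6% of 32851 promoter windows. CACCC, the core letters bound by KLF factors, was found in 6 of the 10 against 57.5%. Both stood in 2 windows, those of Alas2 and Cpox, against 8.96% of all. Capitals below mark the GATA letters (TTATCT or TTATCA as read on this strand) and the CACCC letters (as GGGTG). In the Alas2 window the GATA letters lie in the printed part and the CACCC letters downstream of it. The Alad window shown held neither, and a further Alad window that overlaps it held CACCC once. A match is a description of letters, not of a bound site.
Alas2, chrX:150547167-150547374, plus strand: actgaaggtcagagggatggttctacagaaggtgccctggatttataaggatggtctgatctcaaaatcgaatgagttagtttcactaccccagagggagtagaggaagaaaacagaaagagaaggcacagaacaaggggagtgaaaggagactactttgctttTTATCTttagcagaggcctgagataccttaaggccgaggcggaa
Cpox, chr16:58669958-58670207, plus strand: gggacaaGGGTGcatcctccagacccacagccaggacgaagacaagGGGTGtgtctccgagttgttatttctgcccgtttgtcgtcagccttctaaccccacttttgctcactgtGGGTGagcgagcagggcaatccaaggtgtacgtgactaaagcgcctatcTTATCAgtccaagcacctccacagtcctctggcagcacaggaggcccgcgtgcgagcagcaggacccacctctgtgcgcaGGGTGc
Alad, chr4:62520064-62520313, minus strand: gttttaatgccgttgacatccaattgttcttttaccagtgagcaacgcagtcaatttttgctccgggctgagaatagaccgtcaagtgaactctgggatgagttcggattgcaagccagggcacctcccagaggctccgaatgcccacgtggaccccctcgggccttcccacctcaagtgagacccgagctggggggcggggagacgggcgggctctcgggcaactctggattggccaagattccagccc

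Levels are given as FPKM (fragments per kilobase of transcript scaled to the mapped fragments of the library), which sets genes beside each other per length. The gene lengths used are not given, so the order, shares and ratios of different genes rest on unknown lengths. Fold changes are differences of log2(FPKM + 1) from limma, with adjusted p-values over all 12994 genes tested. A gene is said to have risen or fallen at an adjusted p under 0.05, and is called when the log2 fold change also reached 1 in size. All 8 genes lay at 27.4 FPKM or more in every library, far above the limit of 1 FPKM for testing, so no gene entered the test through a single stage. The libraries summed to 505624 to 691033 FPKM, with 11964 to 12297 genes at 1 FPKM or more, and these sums are not depths: the depth behind each value is unknown. FPKM is relative to the rest of the library, and the 4 adult globin genes took 8.44% ± 1.95 of the sum for Pro and 49.6% ± 2.74 for Ortho (SD, n = 3). Over all genes tested, the median log2 difference of Ortho from Pro was -0.42, and it became -0.73, -0.01 or -0.03 when libraries were rescaled to the same sum, rescaled without hemoglobin genes or centred on their median. In bulk samples, fewer cells of a type and less RNA per cell cannot be told apart.

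The erythroid label was checked against 10 markers. All 10 were above 1 FPKM in every stage, and their summed FPKM was 1989 to 2440 for Pro, 4520 to 5103 for Baso, 4355 to 4458 for Poly and 3187 to 3322 for Ortho. Transcripts of other cell types were also present and moved with stage. The 8 neutrophil markers, all above 1 FPKM in each stage, had a summed FPKM of 6681 to 8456 for Pro, 11612 to 13682 for Baso, 14974 to 17766 for Poly and 13279 to 16537 for Ortho, although the sort removed CD45+, CD11b+ and GR1+ cells. The neutrophil sum was above the erythroid sum in every stage, so passing 1 FPKM does not by itself set the erythroid label apart. The summed FPKM of 6 B cell markers, all but 1 at 1 FPKM or more in every stage, was 50.2 to 83.4 for Pro and 130 to 166 for Ortho. That of 9 macrophage markers, 4 of them at 1 FPKM or more, was 29.3 to 35.1 for Pro and 62.2 to 73.5 for Ortho. Of the 5 T and NK cell markers, 1 reached 1 FPKM, and Cd3e and Cd3g were listed at 0 in Ortho. The 6 megakaryocyte and platelet markers, all at 1 FPKM or more, summed to 68.1 to 123 for Pro and 37.1 to 46.3 for Ortho. Of the genes of the sorting gate, Cd44, Ptprc (CD45), Itgam (CD11b) and Ly6g (GR1) summed to 91.2 to 109 for Pro and 163 to 227 for Ortho. Cd44 alone had a mean FPKM of 32.9 ± 6.35 for Pro, 34.4 ± 2.54 for Baso, 46.6 ± 4.17 for Poly and 54.9 ± 8.74 for Ortho. Its transcript was thus lowest in Pro, the stage gated as CD44-high. The part of the other cell types in the results below was not tested.

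Alas2 (ENSMUSG00000025270, chrX:150547375-150570638, plus strand, 11 exons), the erythroid synthase of the first step, was the enzyme that rose most from Pro to Ortho. Its level was 317, 428 and 265 FPKM in the 3 Pro libraries, 1476, 1481 and 1362 in Baso, 1315, 1479 and 1405 in Poly, and 2044, 2376 and 2243 in Ortho. Every Pro library lay below every later library and every Ortho library above all the others, while Baso and Poly overlapped. Alas2 rose by a log2 fold change of 2.12 in Baso against Pro (SE 0.14, limma adjusted p = 1.65e-06) and by 0.66 in Ortho against Poly (SE 0.14, adjusted p = 0.00435). In Poly against Baso the difference was -0.04 (95% interval -0.36 to 0.28, adjusted p = 0.886). From Pro to Ortho the log2 fold change was 2.74 (SE 0.14, adjusted p = 2.73e-08), a ratio of mean FPKM of 6.60. In Pro Alas2 already lay above 98.5% of the genes tested, and in Ortho above 99.9%. Exons of Alas2 share 311 bases, 12.9% of its exonic bases, with Apex2 on the opposite strand, which lay at 2.78 to 4.40 FPKM in the stage means. The strand setting of the counting is not given, so the effect of this overlap on the Alas2 values is unknown.

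**Figure D1:**
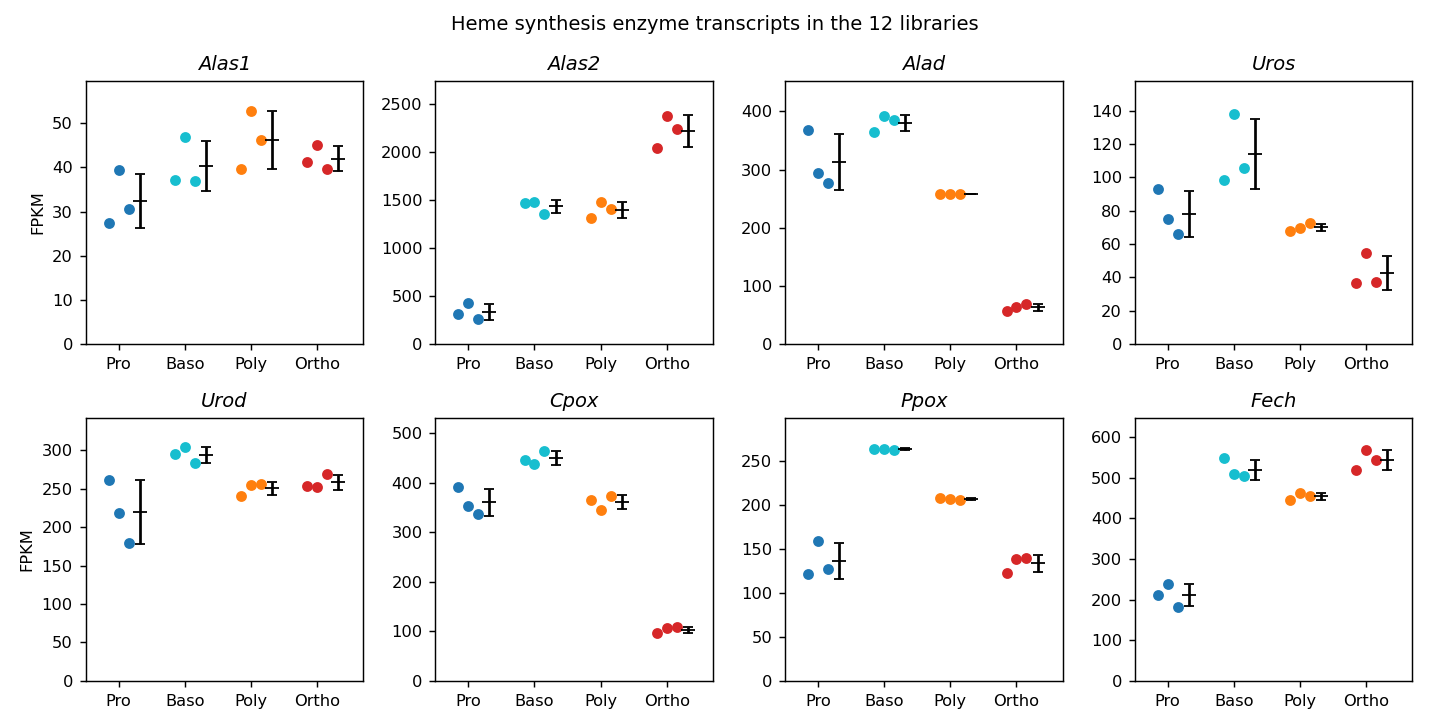
FPKM (linear axis from 0) of the 8 heme synthesis genes in the 12 libraries, 1 panel per gene, with replicates 1 to 3 of each stage from left to right as points and the mean ± SD (n = 3) beside them. Alas2 and Fech stood lowest in Pro, Alad and Cpox dropped in Ortho, and Alas1 stayed between 27.4 and 52.8 FPKM.

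Alas1 (ENSMUSG00000032786, chr9:106233455-106248654, minus strand, 11 exons), the synthase found in all tissues, was the lowest of the 8 in every stage mean. It was measured at 27.4, 39.3 and 30.5 FPKM in Pro, 37.2, 46.8 and 36.9 in Baso, 39.6, 52.8 and 46.1 in Poly, and 41.1, 45.2 and 39.7 in Ortho. Neighbouring stages overlapped throughout, and the highest Pro library lay just below the lowest libraries of Poly and Ortho. The log2 fold change was 0.38 in Ortho against Pro (SE 0.14, limma adjusted p = 0.0321), and no step between neighbouring stages passed with the FPKM as deposited, with adjusted p of 0.0846, 0.412 and 0.619. The difference of Ortho from Pro did not pass without Pro replicate 1 (adjusted p = 0.125), Pro replicate 3 (0.0873), Ortho replicate 1 (0.0575) or Ortho replicate 2 (0.0993), or on rescaling to the same sum, where it was 0.02, but it was 0.86 without hemoglobin genes and 0.78 with libraries centred. The step from Pro to Baso, 0.31 as deposited, passed without Pro replicate 2 (adjusted p = 0.0154), without hemoglobin genes (0.62, adjusted p = 0.00506) and with libraries centred (0.61, adjusted p = 0.00586). Summed neutrophil, B cell and macrophage markers were also higher in Ortho than in Pro, and their part in this difference was not tested.

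The ratio of Alas2 to Alas1 is taken within a library and so does not depend on the scaling. It was 10.4 ± 1.50 for Pro, 36.1 ± 4.07 for Baso, 30.6 ± 2.62 for Poly and 52.9 ± 3.44 for Ortho (SD, n = 3). An exact permutation test of any difference among the 4 stages, over all 15400 divisions of the libraries, gave p = 0.00013, where the smallest possible is 6.49e-05. The test took all libraries as exchangeable and left out the replicate number, which, judged from the values, pairs Baso, Poly and Ortho. On the log2 scale the ratio was higher by 2.36 in Ortho than in Pro. The Pro libraries, at 8.69 to 11.6, and the Ortho libraries, at 49.7 to 56.5, lay apart from all others, while those of Baso (31.7 to 39.7) and Poly (28.0 to 33.2) overlapped. Within each replicate number the ratio was lower in Poly than in Baso (33.2 and 39.7, 28.0 and 31.7, 30.5 and 36.9), which was not tested.

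Alad (ENSMUSG00000028393, chr4:62509169-62519918, minus strand, 12 exons), which condenses aminolevulinate to porphobilinogen, showed the opposite course late in maturation. Its level was 368, 294 and 278 FPKM in Pro, 365, 391 and 385 in Baso, 258, 257 and 259 in Poly, and 57.3, 63.6 and 69.4 in Ortho. The Pro and Baso libraries overlapped, the Poly libraries lay below both and close together (SD 0.782 FPKM), and the Ortho libraries were far below all others. Alad fell by 0.56 on the log2 scale in Poly against Baso (SE 0.10, limma adjusted p = 0.00842) and by 2.01 in Ortho against Poly (SE 0.10, adjusted p = 8.41e-08). In Ortho against Pro the log2 fold change was -2.28 (SE 0.10, adjusted p = 9.78e-09). The rise in Baso, by 0.29 (adjusted p = 0.0314), was lost without Pro replicate 2 (0.0912), Pro replicate 3 (0.122), Baso replicate 2 (0.0834) or Baso replicate 3 (0.0743).

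Uros (ENSMUSG00000030979, chr7:133686243-133710072, minus strand, 10 exons), which closes the ring to uroporphyrinogen III, was lowest in Ortho as well. It was measured at 93.1, 75.1 and 66.0 FPKM in Pro, 98.4, 138 and 106 in Baso, 68.1, 69.3 and 72.5 in Poly, and 36.9, 54.5 and 37.0 in Ortho. All Baso libraries lay above the rest and all Ortho libraries below, whereas the Poly values fell within the range of Pro. Uros fell by 0.72 on the log2 scale in Ortho against Poly (SE 0.17, limma adjusted p = 0.00793) and by 0.86 against Pro (SE 0.17, adjusted p = 0.000722). On rescaling without hemoglobin genes the difference from Pro was -0.38 and no longer passed (adjusted p = 0.0879), and without Ortho replicate 2 it was -1.04. The rise in Baso, by 0.54 (adjusted p = 0.0188), was lost without Pro replicate 3 (0.0781) or Baso replicate 2 (0.0802). The fall in Poly against Baso, by 0.68 (adjusted p = 0.029), was lost without Baso replicate 2 or 3 or any of the Poly replicates, with adjusted p of 0.0666 to 0.0961.

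Urod (ENSMUSG00000028684, chr4:116989965-116994413, minus strand, 10 exons), which converts uroporphyrinogen to coproporphyrinogen, moved least in its stage means, with a ratio of highest to lowest of 1.34. The libraries held 262, 219 and 179 FPKM in Pro, 295, 305 and 284 in Baso, 241, 254 and 256 in Poly, and 253, 253 and 269 in Ortho. The Baso libraries lay above all others, and Poly and Ortho overlapped each other and Pro. Urod rose by 0.44 in Baso against Pro (SE 0.11, limma adjusted p = 0.00562), a rise that did not pass on rescaling to the same sum (log2 fold change 0.26, adjusted p = 0.081). In Poly against Baso the difference was -0.23 (adjusted p = 0.189), which passed in the blocked model, fitted to the Baso, Poly and Ortho libraries with their replicate number as a block (adjusted p = 0.0181). Its difference in Ortho against Poly was 0.04 (95% interval -0.20 to 0.29, adjusted p = 0.839). In Ortho against Pro it was 0.25 (95% interval 0.005 to 0.49, adjusted p = 0.06), and it turned to -0.12 on rescaling to the same sum. It passed at 0.74 without hemoglobin genes (adjusted p = 0.000217), at 0.64 with libraries centred (0.000364) and without Pro replicate 1 (0.00175).

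Cpox (ENSMUSG00000022742, chr16:58670292-58717636, plus strand, 7 exons), the coproporphyrinogen oxidase of the mitochondrial intermembrane space, followed the course of Alad. Its level was 391, 354 and 338 FPKM in Pro, 447, 438 and 465 in Baso, 365, 345 and 373 in Poly, and 96.2, 106 and 108 in Ortho. The Baso libraries were the highest, Pro and Poly overlapped, and all Ortho libraries lay far below. Cpox fell by 1.79 on the log2 scale in Ortho against Poly (SE 0.07, limma adjusted p = 2.08e-08), and the fold change against Pro was -1.79 (SE 0.07, adjusted p = 5.96e-09). The rise in Baso was 0.32 (adjusted p = 0.00362) and did not pass on rescaling to the same sum (0.14, adjusted p = 0.179). The fall in Poly against Baso, by 0.32 (adjusted p = 0.0233), was lost without Baso replicate 2 or 3 or any of the Poly replicates, with adjusted p of 0.0523 to 0.0837.

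Ppox (ENSMUSG00000062729, chr1:171275990-171281186, minus strand, 13 exons), the protoporphyrinogen oxidase of the inner mitochondrial membrane, was highest in Baso, with similar ranges in Pro and Ortho. It was measured at 121, 159 and 127 FPKM in Pro, 264, 264 and 262 in Baso, 208, 207 and 205 in Poly, and 122, 139 and 140 in Ortho. The Baso and Poly libraries formed separate tight groups above the rest, and Pro and Ortho overlapped. Ppox rose by 0.96 in Baso against Pro (SE 0.10, limma adjusted p = 1.03e-05), which became 1.08 and so a call without Pro replicate 2, and 1.27 on rescaling without hemoglobin genes. It fell by 0.63 in Ortho against Poly (SE 0.10, adjusted p = 0.000346). The fall in Poly against Baso, by 0.35 (adjusted p = 0.0391), was lost without any 1 of the Baso or Poly replicates or without Ortho replicate 2 or 3, with adjusted p of 0.0505 to 0.0996, and without hemoglobin genes (0.066). In Ortho against Pro the difference was -0.02 (95% interval -0.23 to 0.19, adjusted p = 0.875), and it turned with the scaling, passing each time: -0.38 (adjusted p = 0.00208) with libraries at the same sum, 0.47 (0.00163) without hemoglobin genes and 0.38 (0.00642) with libraries centred. Exons of Ppox share 791 bases, 17.5% of its exonic bases, with B4galt3 on the opposite strand, which lay at 12.8 to 17.1 FPKM in the stage means. The strand setting of the authors' counting is not given in the sources used here.

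Fech (ENSMUSG00000024588, chr18:64452914-64490251, minus strand, 11 exons), the ferrochelatase that inserts iron into protoporphyrin at the last step, rose as Alas2 did, but by less. Its level was 212, 239 and 183 FPKM in Pro, 548, 508 and 503 in Baso, 446, 462 and 454 in Poly, and 519, 569 and 544 in Ortho. All Pro libraries lay below all later ones, the Poly libraries stood slightly below those of Baso and Ortho, and Baso and Ortho overlapped. Fech rose by a log2 fold change of 1.30 in Baso against Pro (SE 0.09, limma adjusted p = 1.87e-06). In Ortho against Pro it was 1.37 (SE 0.09, adjusted p = 1.27e-07), and 0.999 on rescaling to the same sum, just under the limit for a call. The differences of -0.19 in Poly against Baso (adjusted p = 0.188) and 0.26 in Ortho against Poly (adjusted p = 0.0595) did not pass, but in the blocked model they did, at adjusted p of 0.0414 and 0.00881. The latter also passed without Pro replicate 2 (0.0227) or Pro replicate 3 (0.0188). It moved with the scaling, to 0.07 (adjusted p = 0.613) at the same sum, 0.40 (0.0153) without hemoglobin genes and 0.41 (0.0113) with libraries centred. It also passed at a mean FPKM of at least 5 (0.0466) and with only these 2 stages fitted (0.00718).

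**Figure D2:**
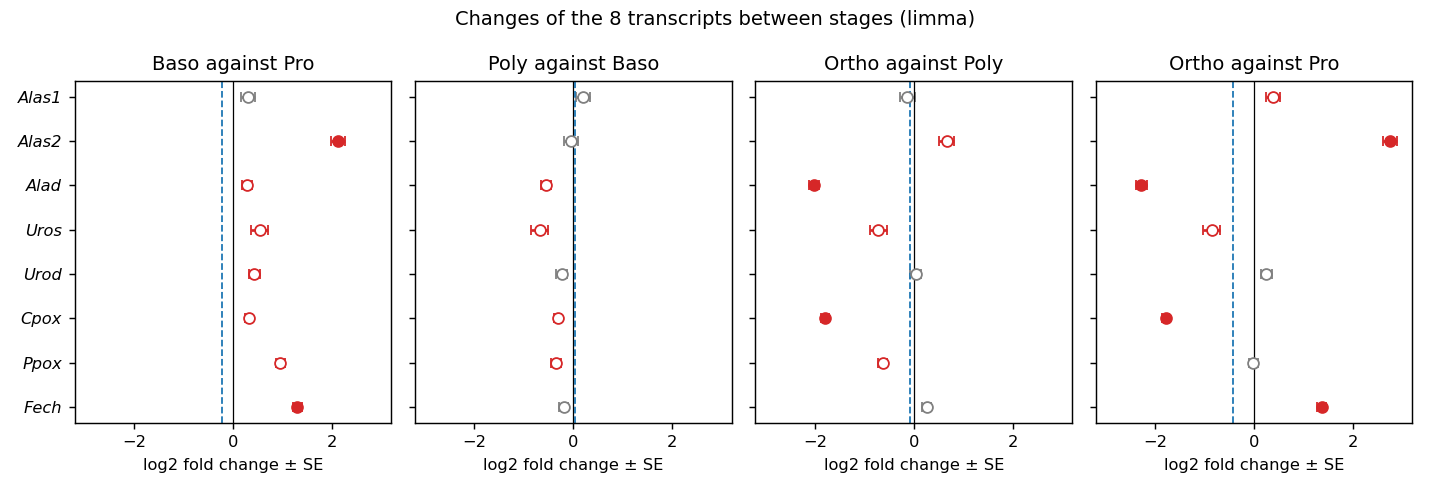
Log2 fold change ± SE from limma for each gene in the 4 comparisons, with filled red points for calls (both criteria met), open red points for an adjusted p under 0.05 with a smaller change, grey points for neither, and a dashed line at the median of all genes tested. In Ortho against Pro, Alas2 (2.74) and Fech (1.37) stand on the right and Alad (-2.28) and Cpox (-1.79) on the left.

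As a group, most of the 8 genes rose at the first step. In Baso against Pro, 2 of 8 were called higher, Alas2 and Fech, against 1.82% of all genes tested, and none was called lower, against 8.54%. By adjusted p alone, 7 of the 8 rose, against 14.9% of all genes, and 0 fell, against 42.1%. The median of the 8 was 0.49 against -0.23 for all genes tested. Alad, Uros, Urod and Cpox did not pass on rescaling to the same sum, as the values of Urod and Cpox given above show for 2 of them and adjusted p of 0.414 and 0.0743 for Alad and Uros. The background turns with the scaling: of all calls in this comparison, 17.6% were higher as deposited, 8.71% with libraries at the same sum, 53.7% without hemoglobin genes and 57.5% with libraries centred.

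In Poly against Baso, 0 of the 8 were called by limma, against 0.516% of all genes tested. By adjusted p alone 4 fell, Alad, Uros, Cpox and Ppox (the 4 that also had an unadjusted p under 0.05), against 5.77% of all genes, and 0 rose, against 6.58%. The median of the 8 was -0.27 against 0.03 for all genes. Of these 4, Alad passed in every leave-one-out model, whereas the other 3 did not.

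In Ortho against Poly, 2 of 8 were called lower, Alad and Cpox, against 4.81% of all genes tested, and 0 were called higher, against 1.05%. By adjusted p alone Alad, Uros, Cpox and Ppox fell, 4 of 8 against 21.7%, and Alas2 rose, 1 of 8 against 4.43%. The median of the 8 was -0.38 against -0.08 for all genes. Of all calls here, 18% were higher as deposited, 9.44% at the same sum, 28.6% without hemoglobin genes and 31.0% with libraries centred.

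In Ortho against Pro, 2 were called higher, Alas2 and Fech, against 6.33% of all genes tested, and 2 lower, Alad and Cpox, against 23.8%. By adjusted p alone 3 rose, against 22.7%, and 3 fell, against 53.2%. The median of the 8 was 0.12 against -0.42 for all genes. Of all calls, 21.0% were higher as deposited, 6.16% at the same sum, 63.4% without hemoglobin genes and 61.6% with libraries centred. The count of 4 calls was the same on rescaling to the same sum, with Uros in place of Fech. This made 1 higher and 3 lower, against 2.45% and 37.3% of all genes tested at that scaling. The count was 5 without Ortho replicate 2, with Uros added. In a moderated F test of any difference among the stages all 8 passed, with adjusted p from 9.19e-09 for Cpox to 0.0366 for Alas1, against 78.4% of all genes tested. These comparisons share libraries and are not independent of each other. With 3 libraries a side, the smallest p of an exact permutation test is 0.1, and the p-values rest on the spread that limma shares across genes.

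**Figure D3:**
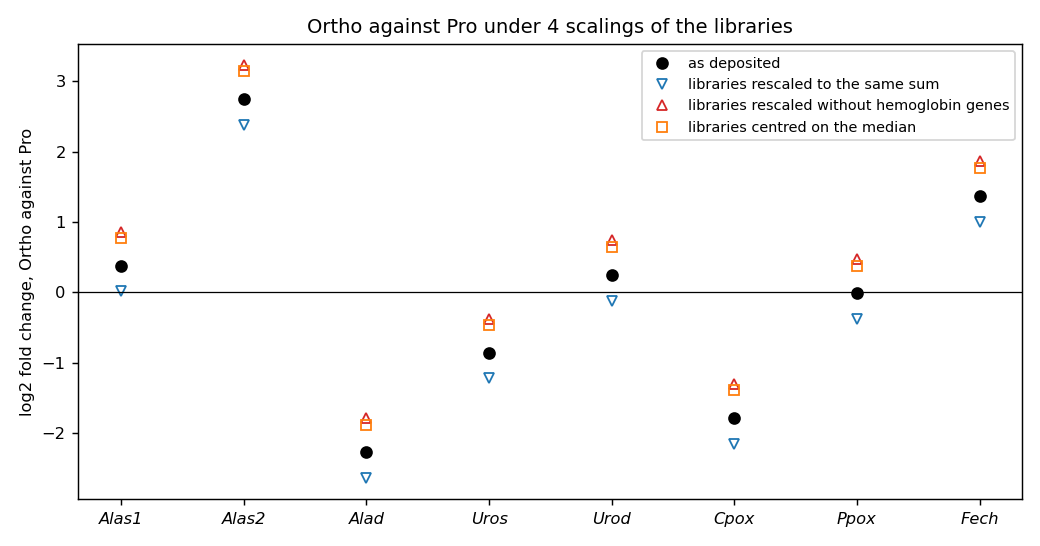
Log2 fold change of the 8 genes in Ortho against Pro with the FPKM as deposited and under 3 other scalings of the libraries. The rise of Alas2 and Fech and the fall of Alad, Cpox and Uros keep their direction under all 4, whereas Urod and Ppox lie on either side of 0.

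The order of the levels also changed. In Pro the means ran Cpox, Alas2, Alad, Urod, Fech, Ppox, Uros and Alas1 from high to low. The libraries of Cpox and Alas2, of Alas2 and Alad, and of Urod and Fech overlapped there. In Baso and Poly the order was Alas2, Fech, Cpox, Alad, Urod, Ppox, Uros and Alas1, and no neighbours overlapped. In Ortho it was Alas2, Fech, Urod, Ppox, Cpox, Alad, Uros and Alas1, and the libraries of Uros and Alas1 overlapped.

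The summed FPKM of the 8 genes was 1688 ± 192 for Pro, 3501 ± 87.9 for Baso, 3046 ± 95.5 for Poly and 3408 ± 221 for Ortho (SD, n = 3). From Baso on the sum lay between 2941 and 3606 in every library with the FPKM as deposited. Set against all FPKM of the library, it was 0.596% ± 0.00921 for Baso, 0.518% ± 0.00923 for Poly and 0.508% ± 0.0217 for Ortho. The makeup of the summed FPKM of the 8 genes went on changing, mainly between Poly and Ortho. Alas2 made up 19.8% ± 3.35 of the sum for Pro, 41.1% ± 0.944 for Baso, 45.9% ± 1.29 for Poly and 65.1% ± 0.715 for Ortho. Cpox went from 21.5% ± 1.76 in Pro to 3.04% ± 0.0949 in Ortho, and Alad from 18.6% ± 2.18 to 1.86% ± 0.132. Fech held 12.5% ± 0.716 in Pro and 16.0% ± 0.341 in Ortho. Its share was 14.8% ± 0.647 for Baso and 14.9% ± 0.217 for Poly. The first and the last enzyme of the chain, Alas2 and Fech, thus held most of the sum in Baso, Poly and Ortho. The gain of the pair after Baso lay mainly with Alas2.

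**Figure D4:**
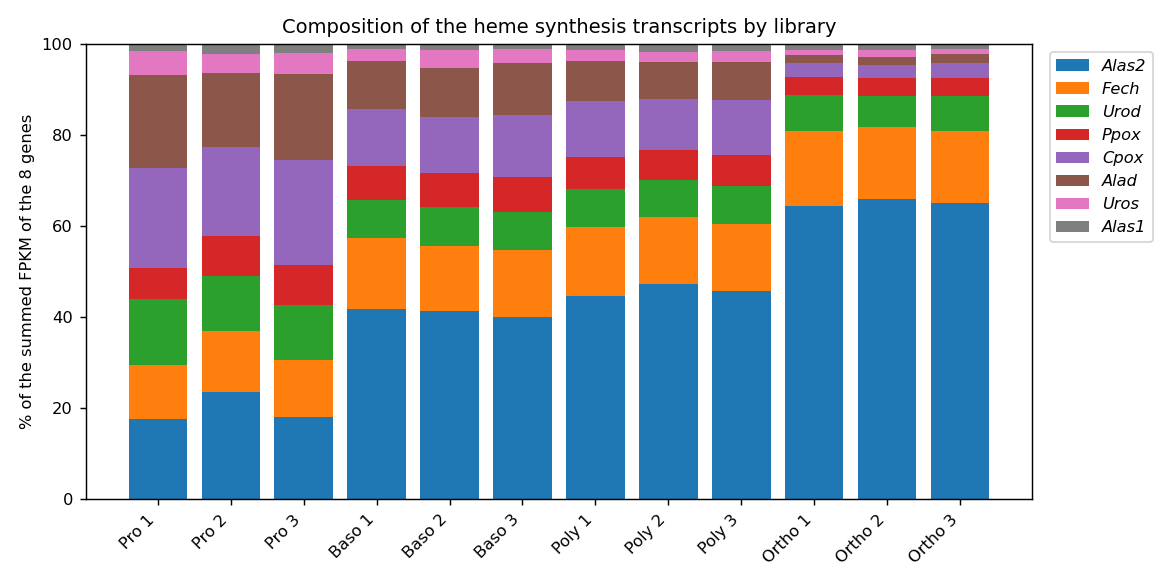
Share of each of the 8 genes in their summed FPKM, as stacked bars from 0 to 100% for each of the 12 libraries. The Alas2 share lies at 17.7 to 23.7% in the Pro libraries and at 64.5 to 65.9% in the Ortho libraries, and the Cpox and Alad shares shrink in Ortho.

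Ratios within a library, which are free of the scaling, showed the same split between enzymes. Fech over Cpox, the last enzyme over the one that starts the mitochondrial oxidations, was 0.586 ± 0.0779 for Pro, 1.16 ± 0.0724 for Baso, 1.26 ± 0.0689 for Poly and 5.26 ± 0.197 for Ortho (SD, n = 3). Alas2 over Alad, the first step over the next, was 1.09 ± 0.321, 3.79 ± 0.254, 5.42 ± 0.327 and 35.1 ± 2.55 in the same order. The Ortho libraries lay above all others in both ratios. Alad over Cpox, the pair that fell, went from 0.864 ± 0.0673 in Pro to 0.612 ± 0.0259 in Ortho. Alas2 and Fech, the pair that rose, did not keep step. Fech was 63.9% ± 6.99 of Alas2 for Pro, 36.1% ± 1.55 for Baso, 32.5% ± 1.33 for Poly and 24.5% ± 0.756 for Ortho. No test was run on the ratios of this paragraph.

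Globin transcripts, far more abundant, followed a course close to that of Alas2. The summed FPKM of Hba-a1, Hba-a2, Hbb-bs and Hbb-bt, the adult α- and β-globin genes, was 131 ± 7.51 times that of Alas2 for Pro, 143 ± 5.78 times for Baso, 154 ± 3.35 times for Poly and 149.8 ± 4.24 times for Ortho (SD, n = 3). This ratio differed by far less between stages than Alas2 itself did, with the Pro libraries (123 to 138) below those of the later stages (140 to 157). The α-globin genes are near-identical copies, as are the β-globin genes, so reads shared by a pair make the split between its copies uncertain, and the sum is given.

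**Figure D5:**
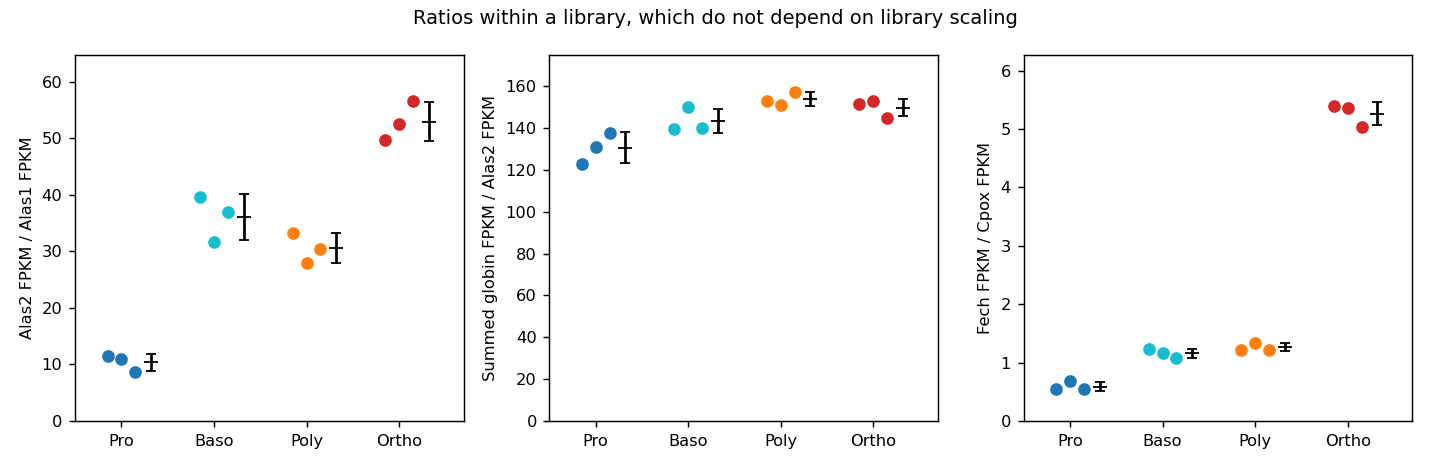
Ratio of Alas2 to Alas1, of the 4 summed globin genes to Alas2, and of Fech to Cpox, each computed from FPKM within a library (linear axes from 0), with points for libraries and the mean ± SD (n = 3) beside them. Alas2 over Alas1 goes from 10.4 to 52.9 and Fech over Cpox from 0.586 to 5.26, while globin over Alas2 stays between 123 and 157.

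The pattern over the 12 libraries was compared by Pearson's r of log2(FPKM + 1), as a description only, since all points share the same libraries and stages. Among the 8, Alas2 and Fech (r = 0.98) and Alad and Cpox (0.99) were the most alike, Uros stood near Alad (0.89) and Cpox (0.87), and Alas2 and Alad ran apart (-0.53). Of the other genes tested, those most like Alas2 included Hba-a2 (0.998) and Hba-a1 (0.998), the α-globin genes. Those most like Fech included Dnajb2 (0.991) and Slc25a37 (0.988), the latter of which encodes mitoferrin-1, the carrier of iron into the mitochondrion. Alad was most like Lancl2, Arhgap19 and Gpsm2 (0.996, 0.996 and 0.995), and Cpox was most like Aurka (0.997), the mitotic kinase Aurora A, Tubb4b-ps1 (0.996) and Samd14 (0.996). Aurka had a mean FPKM of 73.3 for Pro, 99.9 for Baso, 81.6 for Poly and 21.4 for Ortho. Ppox was most like Nxpe2 (0.990), St3gal1 (0.979) and Cd24a (0.975), Uros was most like Fam241a, Fbxo7 and Pcyt1b (0.947, 0.947 and 0.942), and Urod was most like Gripap1, D17Wsu92e and Fam110a (0.912, 0.872 and 0.872). Alas1 was most like Fgf3 (0.936), Homer3 (0.923) and Ighj3 (0.923), the last an immunoglobulin segment of B cells, and all 3 lay under 10 FPKM in every stage mean.

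Other genes of the pathway were counted in 5 lists. Their changes in Ortho against Pro were also refitted under the 3 other scalings, which was added after the data were seen. Of the carriers of heme and porphyrins, 9 of 10 were tested (not Flvcr2), and in Ortho against Pro 2 were called higher, against 6.33% of all genes tested, and 3 lower, against 23.8%. The median log2 fold change was -0.47 against -0.42 for all genes. At the same sum 1 was called higher and 4 lower, against 2.45% and 37.3% of all genes. Under either other scaling 2 and 2 were called, against 15.3% and 8.84% without hemoglobin genes and 16% and 9.95% with libraries centred. From Pro to Baso 1 was called higher and 0 lower (1.82% and 8.54% of all genes), from Baso to Poly 0 and 1 (0.0616% and 0.454%), and from Poly to Ortho 0 and 3 (1.05% and 4.81%), and the steps of the other lists have the same background. Tmem14c, which helps to bring protoporphyrinogen into the mitochondrial matrix, had a mean FPKM of 547 ± 71.7 for Pro and 78.3 ± 8.89 for Ortho (log2 fold change -2.79, SE 0.12, limma adjusted p = 5.97e-09). Slc25a39, a mitochondrial carrier of glutathione, went from 67.2 ± 14.7 to 239 ± 33.7 FPKM (log2 fold change 1.83, SE 0.16, limma adjusted p = 1.00e-06). Abcb10, an inner-membrane transporter known to bind mitoferrin-1, went from 152 ± 15.8 to 109 ± 5.41 FPKM. Its log2 fold change of -0.47 (adjusted p = 0.000252) lay near the median of all genes, and was -0.84 at the same sum, 0.015 without hemoglobin genes and -0.08 with libraries centred, where the last 2 did not pass.

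Of 8 genes of mitochondrial iron delivery and iron-sulfur clusters, 3 were called higher in Ortho against Pro, against 6.33% of all genes, and 2 lower, against 23.8%, with a median of 0.17 against -0.42. At the same sum 2 were called higher and 2 lower, against 2.45% and 37.3% of all genes. Under either other scaling 4 and 2 were called, against 15.3% and 8.84% without hemoglobin genes and 16% and 9.95% with libraries centred. Along the 3 steps, 1, 0 and 1 were called higher and 0, 0 and 1 lower. Slc25a37 went from 142 ± 29.7 FPKM in Pro to 588 ± 44.5 in Baso and 543 ± 27.3 in Ortho, close to the course of Fech. Its log2 fold change was 2.06 in Baso (limma adjusted p = 1.56e-06) and 1.94 in Ortho (adjusted p = 7.95e-08) against Pro. Hscb, a cochaperone of cluster assembly, rose by 1.96 (adjusted p = 1.93e-07) and Isca1, another assembly factor, by 1.08 (adjusted p = 4.26e-06). Glrx5, a mitochondrial glutaredoxin, had a log2 fold change of -0.54 (adjusted p = 0.00108), near the median of all genes, which was -0.90 at the same sum and did not pass without hemoglobin genes (-0.05) or with libraries centred (-0.14).

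Of 6 genes that supply glycine and succinyl-CoA, 1 was called higher in Ortho against Pro, against 6.33% of all genes, and 2 lower, against 23.8%, with a median of -0.86 against -0.42. At the same sum 0 were called higher and 4 lower, against 2.45% and 37.3% of all genes. Under either other scaling 1 and 0 were called, against 15.3% and 8.84% without hemoglobin genes and 16% and 9.95% with libraries centred. Along the 3 steps, 1, 0 and 0 were called higher and 3, 0 and 1 lower. Slc6a9, the glycine transporter of the plasma membrane, had a mean FPKM of 39.0 ± 17.4 for Pro, 151 ± 7.35 for Baso, 156 ± 1.96 for Poly and 76.9 ± 11.2 for Ortho. It rose by 2.01 in Baso against Pro (SE 0.22, limma adjusted p = 2.11e-05) and fell by 1.02 in Ortho against Poly (SE 0.22, adjusted p = 0.00452). Shmt2, which makes mitochondrial glycine from serine, fell by 1.36 from Pro to Ortho (adjusted p = 8.82e-07) and Suclg2, a subunit of succinyl-CoA synthetase, by 1.22 (adjusted p = 3.49e-05), and both passed under each scaling. Ogdh, a subunit of the enzyme complex that makes succinyl-CoA, differed by -0.49 (limma adjusted p = 0.000221), near the median of all genes, and by -0.0004 without hemoglobin genes and -0.09 with libraries centred, which did not pass.

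Of 4 heme breakdown genes, 1 was called higher in Ortho against Pro, against 6.33% of all genes, and 1 lower, against 23.8%, with a median of -0.60 against -0.42, and none was called at a single step. At the same sum 0 were called higher and 2 lower, against 2.45% and 37.3% of all genes. Under either other scaling 1 and 1 were called, against 15.3% and 8.84% without hemoglobin genes and 16% and 9.95% with libraries centred. Hmox1, the inducible heme oxygenase, was low throughout, at 4.05 ± 0.611 FPKM in Pro and 9.50 ± 0.225 in Ortho (log2 fold change 1.06, limma adjusted p = 2.06e-05). Blvra, a biliverdin reductase, went from 42.5 ± 8.25 to 10.8 ± 0.640 FPKM and fell by 1.86 (adjusted p = 6.18e-08), and Blvrb, the other reductase, fell by 0.90 (adjusted p = 1.07e-05). Hmox2, the constitutive oxygenase, differed by -0.30 (adjusted p = 0.235), which was -0.65 at the same sum (0.0182), 0.16 without hemoglobin genes and 0.094 with libraries centred.

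Of 13 regulators of heme synthesis, 1 was called higher in Ortho against Pro, against 6.33% of all genes, and 6 lower, against 23.8%, with a median of -0.96 against -0.42. At the same sum 0 were called higher and 10 lower, against 2.45% and 37.3% of all genes. Without hemoglobin genes 2 were called higher and 5 lower, against 15.3% and 8.84%, and with libraries centred 2 and 5, against 16% and 9.95%. Along the 3 steps none was called higher, and 3, 0 and 3 were called lower. Klf1, an erythroid factor that binds CACCC letters, went from 320 ± 23.5 FPKM in Pro, 340 ± 13.1 in Baso and 292 ± 15.7 in Poly to 69.3 ± 7.42 in Ortho. It fell by 2.06 in Ortho against Poly (SE 0.09, limma adjusted p = 2.46e-08) and by 2.19 against Pro (adjusted p = 5.11e-09). Gata1, the erythroid GATA factor, was named after its values were seen and fell by 1.67 in Ortho against Poly (adjusted p = 9.28e-08). Alad and Cpox fell and Alas2 rose at the same step, where 4.81% of all genes tested were called lower. A link between Gata1 and these genes was not tested. Eif2ak1, the heme-regulated kinase of translation initiation, rose by 1.12 from Pro to Ortho (adjusted p = 3.47e-07). Lonp1, a mitochondrial protease, fell by 2.08 (adjusted p = 2.89e-08), and Atpif1, an inhibitor of the mitochondrial ATP synthase, by 0.96 (adjusted p = 1.83e-06).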

How the data were processed

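RNA sequencing libraries of 4 stages of mouse bone marrow erythroblasts, 3 per stage, were grouped by their titles. Reads had been trimmed (Cutadapt, Trimmomatic), aligned to mm10 (Hisat2) and counted (Samtools, FeatureCounts), and the authors deposited FPKM for each gene and library. The FPKM tool, annotation and versions are not given in the sources used here, and the labels (Trizol, NEBNext Ultra) and the methods (Geek lysis, KAPA Hyper Prep) name different kits. The authors ran DESeq2 on counts, and counts were not used here. Of 29839 table lines, 29838 genes remained after a repeat was dropped. No column was left unassigned. Low values showed no steps of whole fragments (5051 genes with values under 0.03, 3.87% of log2 ratios in the commonest bin of 0.1), so the depth is unknown and the spread between replicates gives the precision.

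The 12994 genes that reached 1 FPKM in 3 or more libraries entered a limma 3.58.1 model (R 4.3.3) of log2(FPKM + 1) over all 12 libraries, with a variance trend, two-sided, with Benjamini-Hochberg adjustment over all genes tested. The ratio of Alas2 to Alas1 was tested by an exact permutation test over 15400 divisions. The 8 genes, the lists and the tests were chosen with earlier results of these data known. All 8 genes were named, and of each pathway list the 3 of largest mean FPKM and the 2 of largest change in Ortho against Pro, with the 3 genes most alike each enzyme. A few genes that this rule names are not reported here. Positions were read from GENCODE M21 and promoters from RefSeq (GRCm38.p6) with Python 3.11.15. Alternatives were pseudocounts of 0.1 and 5, other filters, scalings and models, the replicate number as a block, and leaving out each library. Libraries with the same replicate number deviated together among Baso, Poly and Ortho (correlation of deviations 0.156 to 0.319), which pairs these stages, judged from the values and not from the labels. With Pro the correlations were 0.00524 to 0.0968, under the limit of 0.1 chosen for pairing. Whether Pro is paired is not known.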

Additional observations from a re-analysis of the deposited data

How the results depend on the processing

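The 8 genes were refitted under 22 alternatives in the comparisons with Pro and 23 in the others (the blocked model without Pro being the added one), 720 results in all, of which 651 kept direction and side of the threshold, 18 newly passed it, 42 lost it and 9 changed sign. By adjusted p without a limit on the fold change, 7, 4 and 5 of the 8 genes passed in Baso against Pro, Poly against Baso and Ortho against Poly. Leaving out 1 library gave 2 to 3, 0 to 0 and 2 to 2 calls in these comparisons and 4 to 5 in Ortho against Pro, and a log2 ratio of Alas2 to Alas1 in Ortho against Pro higher by 2.24 to 2.44. On rescaling without hemoglobin genes or centring on the median, 3 genes were called in Baso against Pro, Ppox being added. All 3 were called higher, against 3.74% and 4.26% of all genes under these scalings. The sign changed for differences that had not passed as deposited, of which Ppox then passed under both scalings: Urod to -0.14 (Ortho against Poly) and -0.12 (Ortho against Pro) with libraries at the same sum, Alas1 in Ortho against Poly to 0.014 without hemoglobin genes and 0.023 with libraries centred, Alas2 in Poly against Baso to 0.0030 without Poly replicate 1 (-0.081 to 0.0030 over the models that leave out 1 library), and Ppox in Ortho against Pro to 0.47 without hemoglobin genes, 0.38 with libraries centred, 0.10 without Pro replicate 2 and 0.04 without Ortho replicate 1 (-0.093 to 0.10 over such models). Of the pathway genes named, Abcb10 changed sign to 0.015 without hemoglobin genes, and Hmox2 to 0.16 without hemoglobin genes and 0.094 with libraries centred. The cause was not tested. Without the filter on low values, adjusted p was 0.0763 and 0.065 for Alad and Uros in Baso against Pro, 0.0887 and 0.0875 for Uros and Ppox in Poly against Baso, and 0.086 for Alas1 in Ortho against Pro. In the blocked model of Baso, Poly and Ortho (replicate block), Urod and Fech in Poly against Baso and Fech in Ortho against Poly newly passed (adjusted p = 0.0181, 0.0414 and 0.00881). With the block on all 12 libraries, Alas1 in Baso against Pro passed (adjusted p = 0.00819), though whether Pro is paired is not known. No other difference of the 8 genes crossed the threshold with the block. Calls over all genes moved by more than 1.5 times with the pseudocount: at 5 there were 598, 21, 439 and 2088 in the 4 comparisons against 1347, 67, 762 and 3915, and at 0.1 there were 122 in Poly against Baso. By adjusted p alone there were 7405, 1605, 3397 and 9857.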
